A study of Mus musculus with 9 samples.

Results

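The collagen chain genes of mouse, those whose symbol is Col followed by a type number, the letter a and a chain number, were described in 3T3-L1 cells across 3 treatments. The rule matched 42 of the 28965 genes in the deposited table. Of these 42, 26 had a mean value of at least 10 over the 9 libraries and entered the test, within 15002 genes tested in all. 3T3-L1 is an established mouse line of adipocyte precursors that resembles fibroblasts until it is induced to become fat cells. The cells were wild type and in all 9 samples had been confluent with no medium change for 2 days before they received an adipogenic cocktail for 24 h: insulin at 0.1 µg/mL, the phosphodiesterase inhibitor 3-isobutyl-1-methylxanthine at 30 µg/mL and the glucocorticoid dexamethasone at 0.1 µg/mL. The MDI group (n = 3) had bovine serum albumin (BSA) as vehicle beside the cocktail. In the OA group (n = 3) the BSA carried 100 µM oleic acid, the main monounsaturated fatty acid of the diet. The OA_T0 group (n = 3) had that oleic acid and 5 µM T0901317, a synthetic agonist of the liver X receptors (LXR), which are nuclear receptors for oxysterols. There was no group with T0901317 and no oleic acid, and none without the cocktail. The labels do not say whether the 3 libraries of a group came from separate cultures, so p-values here measure the spread between these libraries, which may be technical.

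Collagens are built from 3 chains wound into a triple helix, and each chain has a gene of its own. The fibrillar types I, II, III, V, XI, XXIV and XXVII form or nucleate the banded fibrils of connective tissue, while type IV forms the sheet-like network of basement membranes, the thin matrix that surrounds every mature fat cell. Multiplexins (types XV and XVIII) lie in or beside basement membranes. FACIT collagens, which have interrupted triple helices, attach to the surface of fibrils, and type VI makes beaded microfilaments that are abundant around fat cells. In the textbook course of fat cell formation, a matrix rich in fibrillar collagen gives way to one rich in basement membrane and type VI collagen.

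The values are the authors' normalised counts of fragments per gene, from libraries of poly(A) RNA, and are called normalised counts below. Estimated depth was 18.0 to 59.9 M fragments per library, and 3 fragments corresponded to 1.35 to 4.62 normalised counts. A ribosomal RNA gene took 0.649% of all values in OA replicate 1 and 3.06% in OA_T0 replicate 3, against 4.40% to 5.96% in the other 7 libraries. Collagen results were therefore also computed without those 2 libraries. The treatment labels were checked with a pair of known target genes. The LXR target Abca1 stood at 7137, 7783 and 7104 in OA_T0 and at 973 to 1186 in the other 6 libraries. The fatty acid-responsive gene Angptl4 stood at 12196, 11032 and 13647 in OA and at 909 to 1131 in the other 6. Those include OA_T0, labelled with the same oleic acid, at 909, 996 and 941, against 986, 925 and 1131 in MDI. Angptl4 therefore checks the oleic acid label of OA but not that of OA_T0, and the reason was not tested.

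The cell type was checked against marker lists. The 8 fibroblast and preadipocyte markers were all tested and summed to 210468 to 238716 per library. Their summed range was 237165 to 238716 in MDI, 210468 to 224561 in OA and 212617 to 230385 in OA_T0. Its largest member was Fn1, a matrix gene also listed among the fibril-associated proteins below. Fn1 had means of 123603, 101748 and 102495 in the same order, and the sum follows it. Of 5 adipocyte markers found, the defining Adipoq, Plin1 and Cidec never exceeded 6.76, 6.71 and 4.47. The adipocyte sum, carried by Fabp4 and Lipe, was 427.5 to 609 in MDI, 2193 to 2752 in OA and 693 to 872 in OA_T0. The sum of 6 myofibroblast and smooth muscle markers, mostly Acta2 (smooth muscle actin), was 3309 to 4457 in MDI, 2096 to 2425 in OA and 5069 to 5353 in OA_T0. Cnn1 and Myh11 of that list stayed at or below 8.05. In the fibroblast list 1 of 8 genes rose and 0 fell in OA against MDI, 1 rose and 1 fell in OA_T0 against OA, and 0 passed in OA_T0 against MDI. Of all genes tested 3.43% were called higher and 3.36% lower in OA against MDI. The shares were 8.27% and 6.84% in OA_T0 against OA. Pdgfra, a receptor of platelet-derived growth factor, rose in OA against MDI by 0.47 on the log2 scale (limma adjusted p = 0.00406) and fell by 0.65 in OA_T0 against OA (limma adjusted p = 1.53e-04), and both calls passed in all 19 alternatives. Dlk1 (preadipocyte factor) rose by 0.28 in OA_T0 against OA (limma adjusted p = 0.0444), a call that ended without MDI replicate 2 (adjusted p = 0.0645), OA replicates 1 or 2 (adjusted p = 0.170 and 0.154) or OA_T0 replicates 1 or 2 (adjusted p = 0.180 and 0.115). These 3 sums move with the groups compared below, and their part in the collagen results was not tested. Of the chondrocyte markers, Acan, Matn1, Matn3 and Hapln1 were at or below 3.08 in every library. Macrophage markers summed to 28.9 to 79.8 with Adgre1 at 0 throughout, endothelial markers to 4.14 to 15.7 and epithelial markers to 0 to 4.14. In bulk RNA, fewer cells of a type and less RNA per cell cannot be told apart.

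The promoters of Col3a1 (type III), Col11a1 (type XI) and Col6a2 (type VI) are shown because the RNA levels of these genes differed between OA_T0 and OA, downwards for Col3a1 and Col6a2 and upwards for Col11a1. Each is the 250 bases before a RefSeq transcript start in GRCm38.p6, a later assembly than the mm9 named in the submitters' processing notes. Capitals mark matches to 3 promoter motifs: CCAAT, the box bound by NF-Y, TATAAA, the TATA box, and GGGCGG, the GC box bound by SP1. Each is printed 5′ to 3′ on the gene's own strand. Both strands were searched, so a match on the other strand is seen as the reverse complement. Col3a1 is at chr1:45311288-45311537 on the + strand, Col11a1 at chr3:114030290-114030539 on the + strand, and the outer of the Col6a2 starts at chr10:76623631-76623880 on the - strand. None of these windows holds an annotated exon.
Col3a1: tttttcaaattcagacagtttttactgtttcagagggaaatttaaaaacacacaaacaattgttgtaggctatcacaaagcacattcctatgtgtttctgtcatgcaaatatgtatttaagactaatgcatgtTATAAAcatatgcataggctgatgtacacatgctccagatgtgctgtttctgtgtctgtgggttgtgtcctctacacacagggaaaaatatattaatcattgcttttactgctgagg
Col11a1: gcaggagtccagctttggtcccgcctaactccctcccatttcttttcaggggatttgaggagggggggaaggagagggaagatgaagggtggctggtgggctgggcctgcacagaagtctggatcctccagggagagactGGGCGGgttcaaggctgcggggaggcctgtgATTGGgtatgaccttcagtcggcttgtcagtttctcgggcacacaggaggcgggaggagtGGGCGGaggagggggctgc
Col6a2: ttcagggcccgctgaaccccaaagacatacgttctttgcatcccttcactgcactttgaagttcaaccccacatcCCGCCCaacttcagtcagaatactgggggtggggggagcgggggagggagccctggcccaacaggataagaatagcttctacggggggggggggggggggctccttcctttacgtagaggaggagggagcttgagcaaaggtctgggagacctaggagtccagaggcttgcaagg

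The Col3a1 window was 35.2% G or C and held 1 TATAAA, which began 117 bases before the start, and none of the other motifs. The Col11a1 window was 62.4% G or C and held 1 CCAAT, 79 bases before the start, and 2 GGGCGG. The Col6a2 window was 59.2% G or C and held 1 GGGCGG. RefSeq gave such windows for 33 of the 42 collagen genes, and for 22 of the 26 tested ones, which had 24 windows. GGGCGG occurred in 15 of these 24 windows (62.5%), against 32.7% of 32851 mouse promoter windows of the same length. CCAAT occurred in 10 (41.7%, against 33.8%) and TATAAA in 3 (12.5%, against 12.4%). The pattern known as DR4, the half-site AGGTCA repeated after 4 bases of any kind, is bound by LXR with its partner RXR, and with no mismatch allowed it occurred in 0 of the 24 windows and in 5 of the 32851 (0.0152%). Col4a1 and Col4a2 start 21 bases apart on opposite strands of chromosome 8, so each of their windows holds annotated exon of the other gene and is not shown. No test was run on these counts, and a match of letters is not a measured binding site.

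Collagens made up 1.36% to 1.58% of all values in each library. To compare levels between genes, each value was divided by the length in kb of all annotated exons of the gene merged (GENCODE M21 basic). That length covers every annotated transcript form, 6008 bases for Col6a2 and 4100 for Col6a1. Which forms the cells made was not tested, so the order of genes is approximate. On this scale the MDI means were 14046 for Col1a2 and 9459.8 for Col1a1, which together form type I collagen, the main protein of tendon, skin and bone. Col3a1, the only chain of type III collagen, which mixes with type I in soft tissue fibrils, had 13452 per kb. The type VI chain gene Col6a1 had 9644 and the type IV chain genes Col4a1 and Col4a2 had 6443 and 4588. Col6a2 had 4639.6, within the spread of Col4a2, and lower on the same scale came Col5a2 with 3366, Col5a1 with 1538, Col12a1 with 1385 and Col6a3 with 1255. Col4a5 had 641 per kb, Col16a1 495, Col18a1 171, Col5a3 159 and Col11a1 110.2. The SD per kb was 958 for Col1a2 and 969 for Col3a1, so these first 2 do not differ beyond their spread, and nor do Col6a1 and Col1a1. The other tested chain genes had group means of at most 68.0 per kb, reached by Col8a1 in OA_T0.

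**Figure D1:**
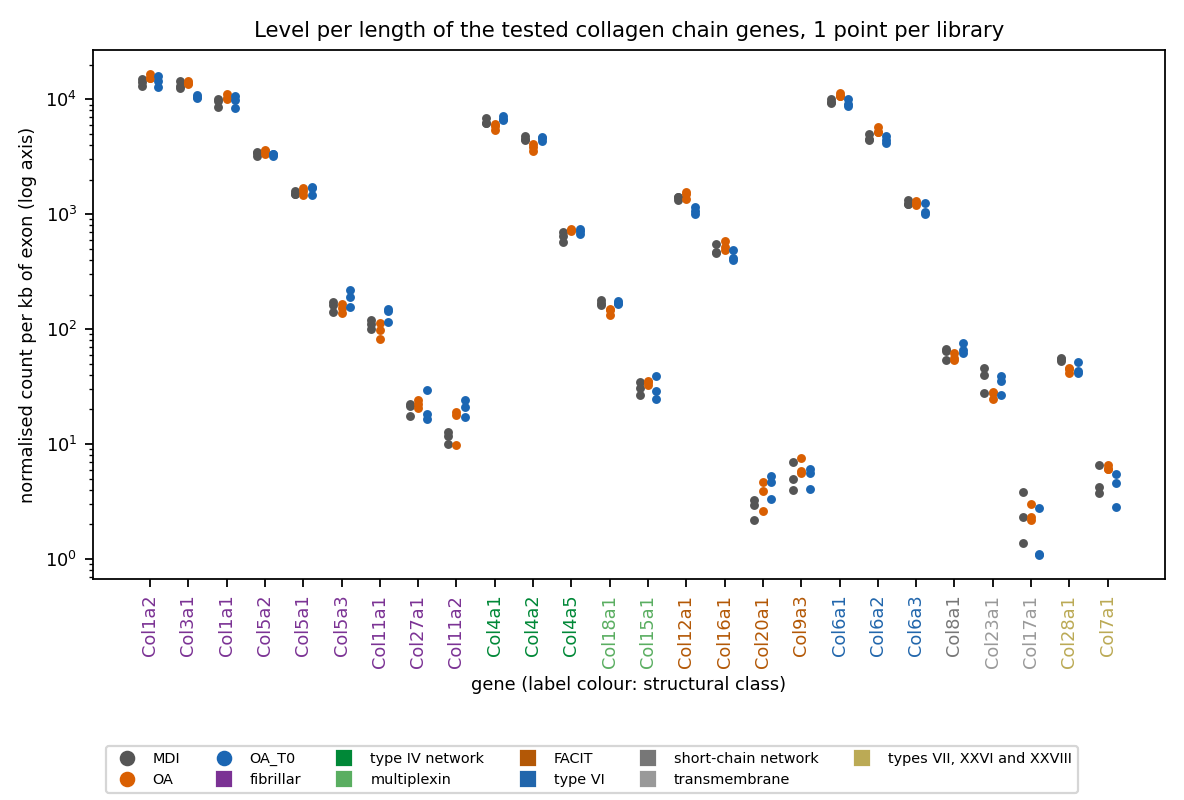
Normalised count per kb of exon (log axis) of the 26 tested collagen chain genes, 1 point per library, coloured by treatment and with gene names coloured by structural class. Col1a2, Col3a1, Col6a1 and Col1a1 lead in MDI, and Col3a1 is lower in the 3 OA_T0 libraries than in the other 6.

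The 16 collagen genes left out of the test reached at most 9.01 normalised counts, in Col4a6, and 8 of them were above 3 fragments in no library. They were the fibrillar Col2a1 and Col24a1, the type IV chains Col4a3, Col4a4 and Col4a6, the FACITs Col9a2, Col14a1, Col19a1 and Col22a1, the type VI chains Col6a4, Col6a5 and Col6a6, and Col8a2, Col10a1, Col25a1 and Col26a1. Col2a1, the chain of cartilage fibrils, did not exceed 1.34, and Col26a1 was listed at 0 in all 9. The filter fell between Col4a4 (mean 3.86) and Col17a1 (mean 12.4). All 26 tested genes were above 3 fragments in all 9 libraries, 11 of them with a mean of at least 10000 and 4 with a mean under 50.

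Summed over all 42 chains, the level was 422400.0 ± 8392 in MDI, 443023 ± 20448 in OA and 405213 ± 27399 in OA_T0 (mean ± SD, n = 3, normalised counts). The ranges of OA and OA_T0 overlapped. The 11 fibrillar chains summed to 243337 ± 7054, 261973 ± 11987 and 231590.0 ± 18653 in the same order. There OA was highest and apart from both other groups, with its lowest library at 253749. The highest library was 251147 in MDI and 249582 in OA_T0. The 6 type IV chains summed to 76411 ± 3713, 67859 ± 3875 and 79487 ± 2901, which made OA the lowest group, with none of its libraries reaching an MDI or OA_T0 library. The FACIT sum was 19442 ± 302, 20773 ± 1266 and 15333 ± 1131, with OA_T0 lowest and apart from both other groups. Type VI chains summed to 81038 ± 3260.1, 90532 ± 4176 and 76679.6 ± 6065, with OA highest and apart from both. The sums are descriptions with no test, and a sum follows its most abundant genes.

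The first comparison set OA against MDI and addressed what oleic acid changed in cells given the cocktail. Basement membrane chains were the collagens that passed the test: Col4a2 and Col18a1 fell, and none rose. By limma on log2(value + 1), with Benjamini-Hochberg adjusted p below 0.05, 2 of 26 collagens passed (7.69%), against 6.79% of all genes tested, so the share was near the background. Both were lower, as were 3.36% of all genes, and 0 were higher, as were 3.43%. With no adjustment, 3 collagens were higher and 4 lower at p under 0.05. The share of all genes at that level was not computed. Counts at an unadjusted p, here and below, are therefore descriptions with no background beside them. The median log2 fold change was 0.09 over the 26 collagens and 0.01 over all genes. The libraries of the groups did not overlap for 8 of 26 collagens (30.8%, against 26.1% of all genes), 4 higher (13.4% of all genes) and 4 lower (12.6%).

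Col4a2 encodes the chain that pairs with 2 copies of the Col4a1 chain in the ubiquitous type IV molecule. It stood at 31152, 28696 and 28924 normalised counts in MDI and at 22968, 24603 and 26356 in OA. All OA libraries were below all MDI libraries (log2 fold change -0.27, SE 0.069, limma adjusted p = 0.0321). Col18a1, whose chain carries the endostatin fragment at its end, stood at 1158, 1103 and 1224 in MDI and 989.9, 903 and 1022 in OA, again with no overlap (log2 fold change -0.26, SE 0.069, limma adjusted p = 0.0352). Col4a1 did not pass: it was 45769, 41029.6 and 41063 in MDI and 35986, 38799.6 and 40492 in OA, with no overlap (log2 fold change -0.15, SE 0.074, limma adjusted p = 0.264). The interval of its difference was -0.31 to 0.0081. Col4a5, a chain of the more specialised type IV molecule, differed the other way without passing. Its values were 3756, 4228 and 4590.1 in MDI and 4870.1, 4772 and 4703 in OA (log2 fold change 0.19, SE 0.068, limma adjusted p = 0.106). Col4a5 was called higher in 1 of the 19 alternatives, without MDI replicate 3 (limma adjusted p = 0.0298). Col15a1, the other multiplexin, ranged from 161 to 234 over all libraries and the groups overlapped (log2 fold change 0.16, SE 0.16, limma adjusted p = 0.631). Of the 5 tested basement membrane chains 2 fell and 0 rose, against 3.36% and 3.43% of all genes, and the median log2 fold change was -0.15. At an unadjusted p under 0.05, 1 of the 5 was higher.

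Both calls were lost when single libraries were left out. Col4a2 missed the threshold without MDI replicates 1 or 2 (adjusted p = 0.101 and 0.0861), OA replicates 1 or 2 (adjusted p = 0.159 and 0.0791) or OA_T0 replicate 1 (adjusted p = 0.0565). Col18a1 did not pass without MDI replicates 1, 2 or 3 (adjusted p = 0.0952, 0.0697 and 0.0981), OA replicates 1 or 2 (adjusted p = 0.0850 and 0.131) or OA_T0 replicate 1 (adjusted p = 0.0562). Neither passed when all 27045 genes with a value were tested with no filter on low values (adjusted p = 0.101 and 0.0729), nor without both libraries with little ribosomal RNA (0.161 and 0.0753).

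None of the 9 tested fibrillar chains passed in OA against MDI, and none had an unadjusted p under 0.05. Col1a2 was 69732, 75699 and 79927 in MDI and 81241, 81246 and 88529.7 in OA (log2 fold change 0.16, SE 0.092, limma adjusted p = 0.366, interval -0.04 to 0.35). Its OA libraries were all above its MDI libraries. Col1a1 was 51179, 57821 and 59291 in MDI and 59166, 60931 and 66199 in OA, with overlap (log2 fold change 0.15, SE 0.095, limma adjusted p = 0.413, interval -0.054 to 0.35). Col3a1 was 80821, 70351 and 73365 in MDI and 76899, 75566 and 80751 in OA, also with overlap (log2 fold change 0.057, SE 0.079, limma adjusted p = 0.746). The chains of type V, which nucleates fibrils, had log2 fold changes of 0.039 (adjusted p = 0.804) for Col5a1, 0.059 (adjusted p = 0.651) for Col5a2 and -0.066 (adjusted p = 0.793) for Col5a3 by limma. For the type XI chain genes they were -0.18 (adjusted p = 0.419) for Col11a1 and 0.38 (adjusted p = 0.382) for Col11a2, and for Col27a1 0.13 (adjusted p = 0.752). Col11a2 was called higher in 1 of the 19 alternatives, without both libraries with little ribosomal RNA (log2 fold change 0.68, limma adjusted p = 0.0383). It was then the only collagen called in OA against MDI. The fibrillar median was 0.059. For Col3a1, Col5a1 and Col5a2 the sign itself changed in 1 of the 19 alternative settings.

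Type VI chains did not pass either. Col6a1 was 38391, 38553 and 41680.1 in MDI and 43503, 43797 and 46280.0 in OA (log2 fold change 0.17, SE 0.072, limma adjusted p = 0.183). Col6a2 was 26604, 27239.8 and 29781 in MDI and 31062, 31246 and 34834 in OA (log2 fold change 0.22, SE 0.076, limma adjusted p = 0.106). For both, every OA library was above every MDI library and the interval lay above 0 (0.018 to 0.33 and 0.055 to 0.38), yet the values missed the adjusted threshold. Col6a3, the largest chain of the molecule, showed a difference of 0.00011 with an interval of -0.16 to 0.16. Of the 12 tested chains that are neither fibrillar nor basement membrane, 0 passed, 2 were higher and 2 lower at an unadjusted p under 0.05, and the median log2 fold change was 0.10. The lowest of these was the membrane-spanning Col23a1 (log2 fold change -0.46, SE 0.18, limma adjusted p = 0.144). It was 262, 158 and 224 in MDI and 158, 161 and 139 in OA, with 1 MDI library inside the OA range. Col28a1, a chain of a von Willebrand domain collagen, was 231, 225 and 238 in MDI and 177, 196 and 191 in OA (log2 fold change -0.30, SE 0.12, limma adjusted p = 0.150).

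**Figure D2:**
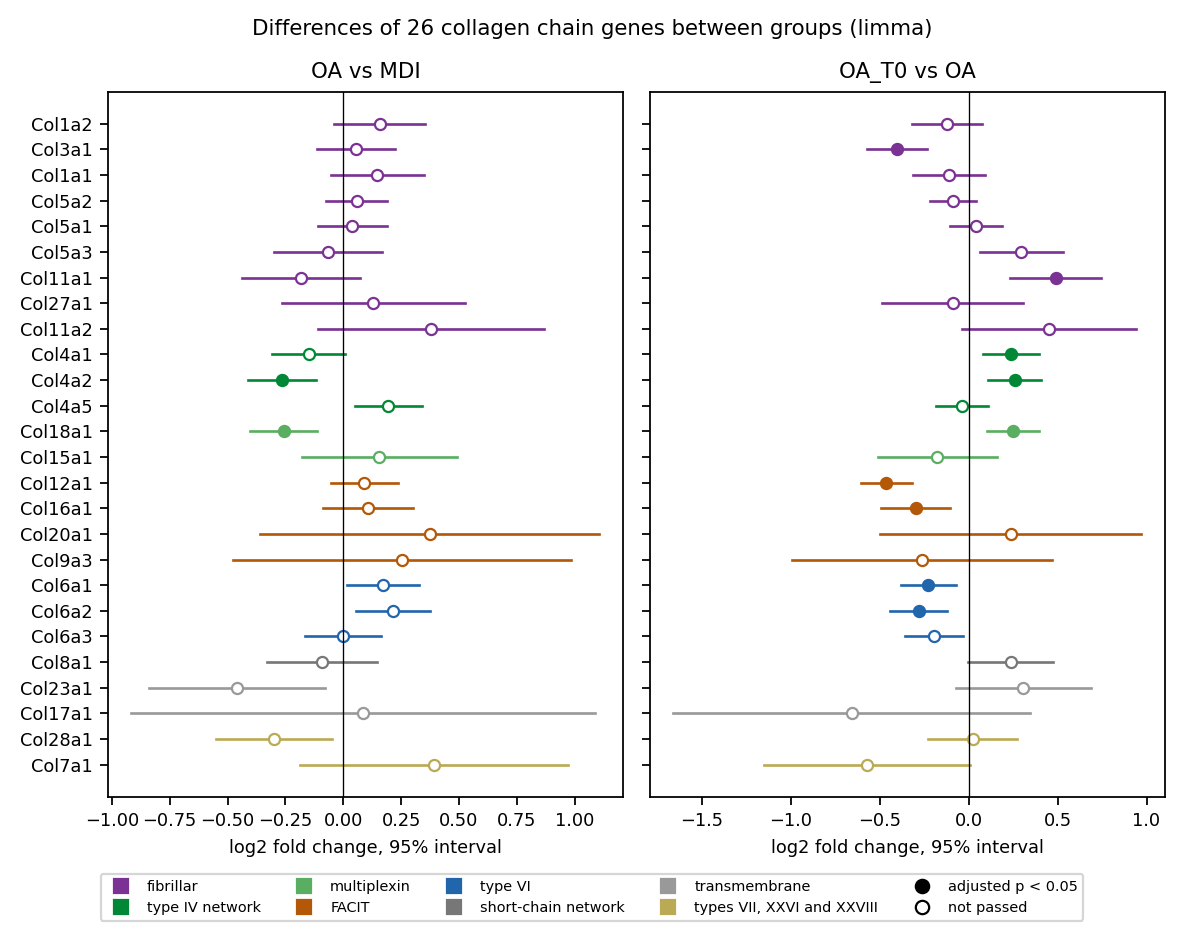
Log2 fold change of the 26 tested collagen chain genes with its 95% interval (limma) in OA against MDI (left) and OA_T0 against OA (right), coloured by structural class, with filled points where the adjusted p was below 0.05. The left panel has 2 filled points, Col4a2 and Col18a1, both below 0, and the right panel has 4 above 0 and 5 below.

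The second comparison set OA_T0 against OA and so addressed the effect of T0901317 on cells that by their labels also had oleic acid. Collagens moved in both directions. The basement membrane chains Col4a1, Col4a2 and Col18a1 and the fibrillar Col11a1 rose, while Col3a1, the FACITs Col12a1 and Col16a1, and the type VI chains Col6a1 and Col6a2 fell. By limma 9 of 26 collagens passed (34.6%), against 15.1% of all genes tested. The 4 higher compare with 8.27% of all genes and the 5 lower with 6.84%. No collagen called differed by 2-fold or more, here or in the other comparisons. The median log2 fold change was -0.089 over the 26 collagens and -0.0023 over all genes. Groups did not overlap for 10 of 26 (38.5%, against 32.1% of all genes), 4 higher (17.1% of all genes) and 6 lower (15.0%).

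Among basement membrane chains 3 of 5 rose, 0 fell (0 also at an unadjusted p under 0.05), and the median log2 fold change was 0.24. The value of Col4a1 was 47225, 44809 and 44019.8 in OA_T0, above all 3 OA libraries (log2 fold change 0.24, SE 0.074, limma adjusted p = 0.0398). Col4a2 was 30406, 29908 and 28071, also above all OA libraries (log2 fold change 0.26, SE 0.069, limma adjusted p = 0.0211). Col18a1 was 1129.8, 1189 and 1145, again with no overlap (log2 fold change 0.25, SE 0.069, limma adjusted p = 0.0236). Col4a5 was 4694, 4866 and 4439 (log2 fold change -0.036, SE 0.068, limma adjusted p = 0.764, interval -0.18 to 0.11) and Col15a1 175, 234 and 148 (log2 fold change -0.18, SE 0.16, limma adjusted p = 0.487). Both overlapped OA. The same OA libraries enter this comparison and the one with MDI, with opposite sign, so the lower values in OA and the higher values in OA_T0 are not separate evidence. This limit also holds for the other genes that moved in opposite directions in these comparisons, Pdgfra and Sox9 among them. The sums of myofibroblast markers were likewise lowest in OA and highest in OA_T0, and their part in these differences was not tested. Of the 4 tested genes of that list 3 rose and 0 fell in OA_T0 against OA, where 8.27% of all genes rose and 6.84% fell. Among them Acta2 rose by 1.28 on the log2 scale (limma adjusted p = 5.55e-07). In OA against MDI 0 rose and 1 fell, Acta2, against 3.43% and 3.36% of all genes. The fourth, Des (desmin), did not pass and had the opposite sign, with all OA libraries above the other 6: its log2 fold changes were -0.55 (adjusted p = 0.0550) in OA_T0 against OA and 0.49 (adjusted p = 0.135) in OA against MDI by limma.

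Of the type I and type III genes only Col3a1 passed. It was 76899, 75566 and 80751 in OA and 58066, 61098 and 57428 in OA_T0. Every OA_T0 library was below every library of the other groups (log2 fold change -0.40, SE 0.079, limma adjusted p = 0.00325), a value 0.757 times that in OA. Col1a1 was 58914, 63878 and 50181 in OA_T0 (log2 fold change -0.11, SE 0.095, limma adjusted p = 0.460, interval -0.31 to 0.09) and Col1a2 was 76819.6, 85159 and 69066 (log2 fold change -0.12, SE 0.092, limma adjusted p = 0.400, interval -0.32 to 0.073). Both overlapped OA. Col11a1, the chain that with Col5a1 starts thin fibrils, was 623, 754 and 868 in OA and 1110.2, 1151 and 883 in OA_T0, with no overlap (log2 fold change 0.49, SE 0.12, limma adjusted p = 0.0126). Its rise, 1.40-fold, was the largest among the collagens called. Col11a2 was 61.5, 121 and 112 in OA and 131, 152 and 108 in OA_T0 and did not pass (log2 fold change 0.45, SE 0.23, limma adjusted p = 0.204).

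Type V chains did not pass in OA_T0 against OA. Col5a3 was 846, 931 and 1007 in OA and 1158, 1335 and 951 in OA_T0 (log2 fold change 0.30, SE 0.11, limma adjusted p = 0.0821). It was called higher in 1 of the 19 alternatives, without OA_T0 replicate 3 (limma adjusted p = 0.00974). Col5a1 was 12442, 13364 and 14096 in OA and 14205, 14525 and 12409 in OA_T0 (log2 fold change 0.042, SE 0.069, limma adjusted p = 0.724), and Col5a2 was 22315, 23359.7 and 23982 in OA and 22307, 22059 and 21187 in OA_T0 (log2 fold change -0.087, SE 0.061, limma adjusted p = 0.370). All 3 Col5a2 values in OA_T0 were below all 3 in OA, by a small margin. Col27a1 had a log2 fold change of -0.09 (adjusted p = 0.786). Of the 9 fibrillar chains 1 rose and 1 fell, against 8.27% and 6.84% of all genes, and their median was -0.087. Sox9, a transcription factor known to drive type II and type XI collagen genes in cartilage and the only chondrocyte marker tested, was 2405, 2559 and 2622 in MDI, 1979.7, 1931 and 2126 in OA and 2528, 2632 and 2384 in OA_T0. It fell by 0.33 on the log2 scale in OA against MDI (limma adjusted p = 0.00468) and rose by 0.32 in OA_T0 against OA (limma adjusted p = 0.00282). Its part in the Col11a1 difference was not tested.

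Of the 4 tested FACIT chains 2 fell, and of the 3 tested type VI chains 2 fell. Over all genes 6.84% fell and 8.27% rose in OA_T0 against OA. Col12a1, which bridges fibrils under tension, was 16595, 19075 and 18191 in OA and 12961, 13930.1 and 12202 in OA_T0. All OA_T0 libraries were below the other 6 (log2 fold change -0.46, SE 0.068, limma adjusted p = 3.47e-04). Col16a1, found at the edges of fibrils and microfibrils, was 2697, 2564 and 3064 in OA and 2160.3, 2565 and 2060.0 in OA_T0. Those groups overlapped by a margin of under 1 normalised count, between OA replicate 2 and OA_T0 replicate 2 (log2 fold change -0.30, SE 0.091, limma adjusted p = 0.0390). The other FACITs did not pass, and both overlapped OA: on the log2 scale Col20a1 differed by 0.24 (adjusted p = 0.686) and Col9a3 by -0.26 (adjusted p = 0.653) by limma. Col6a1 was 43503, 43797 and 46280.0 in OA and 37384, 40985 and 35857 in OA_T0 (log2 fold change -0.23, SE 0.072, limma adjusted p = 0.0459). Col6a2 was 31062, 31246 and 34834 in OA and 26378, 28777 and 24836 in OA_T0 (log2 fold change -0.28, SE 0.076, limma adjusted p = 0.0215). Neither type VI chain overlapped. Col6a3 was 13046, 13618 and 14197 in OA and 11362, 13603 and 10848 in OA_T0, with overlap through OA_T0 replicate 2 (log2 fold change -0.20, SE 0.077, limma adjusted p = 0.0981). Without that library, 1 of the 19 alternatives, it was called lower (limma adjusted p = 0.00780). Of the 12 chains that are neither fibrillar nor basement membrane 4 fell, 0 rose (0 also at an unadjusted p under 0.05), and the median was -0.24.

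The falls of Col3a1 and Col12a1 passed in all 19 alternative settings, and 0 of the 9 calls reversed. The other 7 depended on the libraries used. Col4a1 did not pass without MDI replicate 2 (adjusted p = 0.0548), OA replicates 1 or 2 (adjusted p = 0.187 and 0.0878) or OA_T0 replicates 1, 2 or 3 (adjusted p = 0.177, 0.0633 and 0.0629), nor after quantile normalisation (adjusted p = 0.117). Col4a2 missed the threshold without OA replicates 1 or 2 (adjusted p = 0.122 and 0.0587) or OA_T0 replicate 1 (adjusted p = 0.111), and Col18a1 without OA replicates 1 or 2 (adjusted p = 0.0623 and 0.106) or OA_T0 replicates 1 or 2 (adjusted p = 0.0665 and 0.0549). Col11a1 missed the threshold without OA replicate 1 (adjusted p = 0.0738) or OA_T0 replicate 1 (adjusted p = 0.0724). Col16a1 missed it without MDI replicate 2 (adjusted p = 0.0531), OA replicates 1 or 3 (adjusted p = 0.0860 and 0.121) or OA_T0 replicates 1 or 3 (adjusted p = 0.154 and 0.125). Col6a1 did not pass without MDI replicate 2 (adjusted p = 0.0649), OA replicates 1, 2 or 3 (adjusted p = 0.103, 0.0908 and 0.0999) or OA_T0 replicates 1 or 3 (adjusted p = 0.168 and 0.165), and Col6a2 without OA replicate 3 (adjusted p = 0.0629) or OA_T0 replicates 1 or 3 (adjusted p = 0.0928 and 0.0868). Without OA replicate 1, or without OA_T0 replicate 1, the count of collagens that rose was 0. With no filter on low values 3 of the 9 calls remained, Col18a1, Col3a1 and Col12a1, and without both libraries with little ribosomal RNA also 3, Col11a1, Col3a1 and Col12a1.

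**Figure D3:**
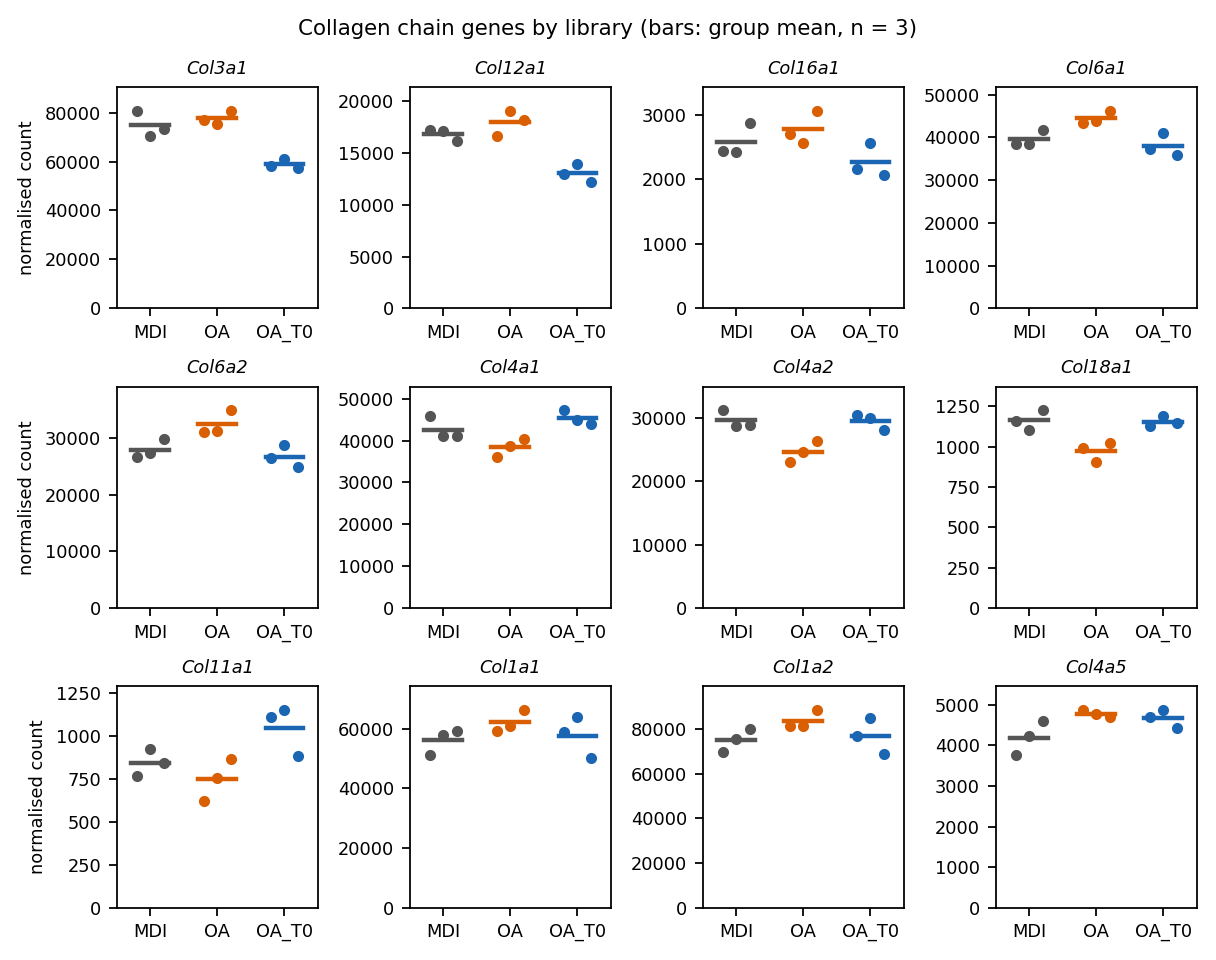
Normalised count of 12 collagen chain genes in each of the 9 libraries, with bars at the group means (n = 3) and axes starting at 0. Col3a1 and Col12a1 are lowest in OA_T0, and Col4a2 and Col18a1 are lowest in OA.

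The last comparison, OA_T0 with MDI, sets cells that had both compounds against vehicle. Only Col3a1 and Col12a1 passed, both lower. That is 2 of 26 collagens (7.69%), against 2.61% of all genes tested by limma. Of all genes 1.36% were called lower and 1.25% higher. With no adjustment 3 collagens were higher and 4 lower at p under 0.05. The 26 had a median log2 fold change of -0.0068, and all genes 0.019. Groups did not overlap for 5 of 26 (19.2%, against 23.5% of all genes), 2 higher (13.3%) and 3 lower (10.2%).

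Col3a1 was 80821, 70351 and 73365 in MDI, all above the 3 OA_T0 values (log2 fold change -0.34, SE 0.079, limma adjusted p = 0.0313). Col12a1 was 17160.3, 17159 and 16181 in MDI, also all above OA_T0 (log2 fold change -0.37, SE 0.068, limma adjusted p = 0.00869). These differences share the OA_T0 libraries with the comparison with OA. Col3a1 missed the threshold without MDI replicates 1 or 2 (adjusted p = 0.0913 and 0.0640), OA replicate 1 (adjusted p = 0.0519) or OA_T0 replicates 1, 2 or 3 (adjusted p = 0.179, 0.0550 and 0.0827). Col12a1 missed it without MDI replicate 2 (adjusted p = 0.0594) or OA_T0 replicate 1 (adjusted p = 0.0665). Neither passed with no filter on low values (adjusted p = 0.131 and 0.0684), and Col3a1 passed neither after quantile normalisation (0.0506) nor without both libraries with little ribosomal RNA (0.116).

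Of the 5 basement membrane chains 0 passed by limma in OA_T0 against MDI and 1, Col4a5, was higher at an unadjusted p under 0.05. The interval of the log2 difference was -0.066 to 0.25 for Col4a1, -0.15 to 0.14 for Col4a2 and -0.15 to 0.14 for Col18a1. For Col4a5 it was 0.013 to 0.30 (adjusted p = 0.231) and for Col15a1 -0.35 to 0.31. The type VI chains had -0.056 (adjusted p = 0.717) for Col6a1, -0.065 (adjusted p = 0.683) for Col6a2 and -0.20 (adjusted p = 0.192) for Col6a3 by limma. Col6a3 was called lower in 1 of the 19 alternatives, without OA_T0 replicate 2 (limma adjusted p = 0.0340). Neither type I gene passed, with an interval of -0.17 to 0.24 for Col1a1 and -0.16 to 0.23 for Col1a2. The largest fitted difference was in a minor chain: Col11a2 was 80.6, 63.1 and 74.4 in MDI and 131, 152 and 108 in OA_T0, with no overlap, and missed the threshold (log2 fold change 0.83, SE 0.23, limma adjusted p = 0.0726). It passed when only these 2 groups were fitted (adjusted p = 0.0268), with OA replicate 1 left out (0.0207), with OA_T0 replicate 3 left out (0.0452) and with both libraries of little ribosomal RNA left out (0.00514). Col11a1 passed only in the last of these settings (0.0198). Col5a3 had 0.23 (adjusted p = 0.274), Col5a1 0.082 (adjusted p = 0.557), Col5a2 -0.029 (adjusted p = 0.838), Col27a1 0.04 (adjusted p = 0.932), and Col16a1 -0.19 (adjusted p = 0.282) on the log2 scale.

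The remaining tested chains passed in no comparison. Col8a1, of short-chain networks, ranged from 275 to 384, and Col23a1 from 139 to 262. The hemidesmosome chain Col17a1 ranged from 6.03 to 21.4, the anchoring fibril chain Col7a1 from 26.2 to 60.8, and Col28a1 from 174 to 238. The FACITs Col20a1 and Col9a3 ranged from 11.3 to 27.1 and from 12.2 to 22.8. With so few counts, intervals were wide, up to -1.66 to 0.34 on the log2 scale for Col17a1 in OA_T0 against OA. Tcfl5 overlaps 7.68% of the exons of Col9a3 on the opposite strand, and Gm47302 overlaps 2.53% of those of Col3a1 on its own strand. The strand setting of the counting is not given in the sources used here.

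Ratios taken within a library cancel any scaling of that library. Col1a1 and Col1a2, whose chains combine 2 to 1 in type I collagen, kept nearly 1 ratio of normalised counts, 0.747 ± 0.0155 in MDI, 0.742 ± 0.0119 in OA and 0.748 ± 0.0203 in OA_T0, and 0.727 to 0.767 over all 9 libraries. Col6a1 to Col6a2 also varied little, from 1.33 to 1.44. The ratio of Col4a1 to Col4a2, which share a promoter region and also combine 2 to 1, was 1.47, 1.43 and 1.42 in MDI, 1.57, 1.58 and 1.54 in OA and 1.55, 1.50 and 1.57 in OA_T0. All MDI libraries were below the other 6, and no test was run on this ratio. Col6a3 to Col6a2 was 0.490 ± 0.0448 in MDI, 0.421 ± 0.0142 in OA and 0.447 ± 0.0227 in OA_T0, with MDI apart from OA.

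A further 3 ratios were chosen after the values were seen and are descriptions. Type III to type I, as Col3a1 to Col1a1, was 1.58, 1.22 and 1.24 in MDI, 1.30, 1.24 and 1.22 in OA and 0.986, 0.956 and 1.14 in OA_T0. The OA_T0 libraries were below all others. Col12a1 to Col1a1 was 0.302 ± 0.0315, 0.289 ± 0.0206 and 0.227 ± 0.0140, again with OA_T0 below all others. Col4a1 to Col1a1 was 0.765 ± 0.112, 0.619 ± 0.0156 and 0.793 ± 0.0882, with OA below all others.

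**Figure D4:**
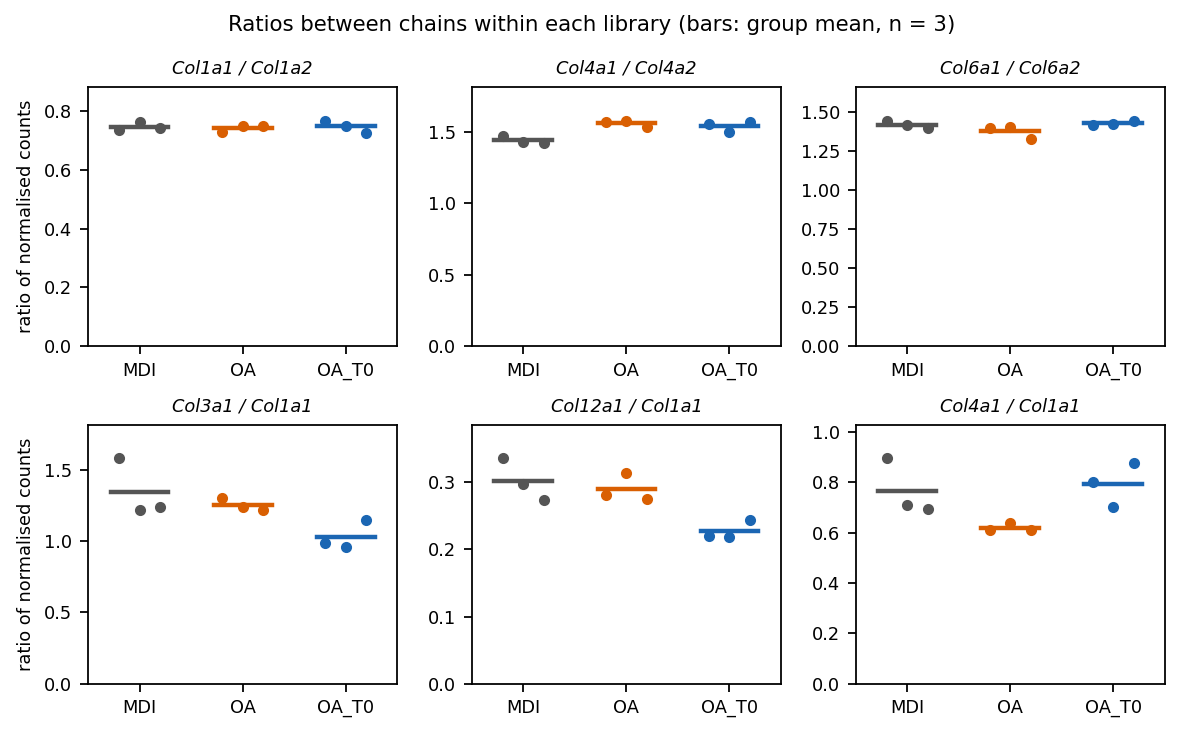
Ratios of normalised counts of collagen gene pairs within each of the 9 libraries, by treatment, with bars at the group means (n = 3). Col1a1 to Col1a2 is level at 0.727 to 0.767, while Col3a1 to Col1a1 is lowest in OA_T0 and Col4a1 to Col1a1 lowest in OA.

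Genes that fold, export, process, bind or accompany collagens were read in the same fits. Where such a gene moved one way in OA against MDI and the other way in OA_T0 against OA, both differences share the OA libraries. They are then not separate evidence. In the cell's endoplasmic reticulum, chains are hydroxylated on proline and lysine and held by chaperones. Of 17 tested folding and modification genes, 4 rose and 0 fell in OA against MDI, against 3.43% and 3.36% of all genes. The list's median log2 fold change there was 0.12 (all genes 0.01). At an unadjusted p under 0.05, 8 were higher and 1 lower. The 4 were P4ha1, a subunit of prolyl 4-hydroxylase (log2 fold change 0.23, SE 0.057, limma adjusted p = 0.0254), the lysyl hydroxylase Plod2 (log2 fold change 0.24, SE 0.068, limma adjusted p = 0.0473), the prolyl 3-hydroxylase P3h1 (log2 fold change 0.29, SE 0.083, limma adjusted p = 0.0492) and the chaperone Fkbp10 (log2 fold change 0.30, SE 0.075, limma adjusted p = 0.0235). P4ha1 missed the threshold without MDI replicates 1 or 3 (adjusted p = 0.0931 and 0.0547) or OA replicates 1, 2 or 3 (adjusted p = 0.0681, 0.0547 and 0.0747). Plod2 did not pass without MDI replicates 1 or 2 (adjusted p = 0.176 and 0.158), OA replicates 1, 2 or 3 (adjusted p = 0.118, 0.141 and 0.0690) or OA_T0 replicate 1 (adjusted p = 0.0614). P3h1 did not pass without MDI replicates 1 or 2 (adjusted p = 0.187 and 0.165), OA replicates 1 or 3 (adjusted p = 0.0882 and 0.173) or OA_T0 replicate 1 (adjusted p = 0.0711), and Fkbp10 without MDI replicates 1 or 2 (adjusted p = 0.108 and 0.0898) or OA replicates 1 or 3 (adjusted p = 0.0622 and 0.0885).

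With T0901317 added to oleic acid, 3 of these 17 fell and 0 rose, against 6.84% and 8.27% of all genes, and the list's median was -0.028. At an unadjusted p under 0.05, 2 were higher and 5 lower. P4ha1 was 8054, 8882 and 8382 in MDI, 9707, 9745 and 10211 in OA and 7884, 8199 and 7573 in OA_T0, so OA stood above both other groups (log2 fold change -0.33, SE 0.057, limma adjusted p = 0.00143). Plod2 also fell (log2 fold change -0.42, SE 0.068, limma adjusted p = 6.92e-04), and both calls passed in all 19 alternative settings. Plod1, another lysyl hydroxylase, had -0.20 (adjusted p = 0.0457), a call that ended without MDI replicates 1, 2 or 3 (adjusted p = 0.0511, 0.0658 and 0.0529), OA replicates 1 or 3 (adjusted p = 0.124 and 0.129) or OA_T0 replicates 1, 2 or 3 (adjusted p = 0.153, 0.0523 and 0.102). The Plod1 call also ended with only the 2 groups fitted (limma adjusted p = 0.0708), with the replicate number as a block (0.0605) and with no filter on low values (0.0942). Serpinh1, the collagen-specific chaperone HSP47, passed nowhere. It was 39237, 43052 and 46489 in MDI, 41462, 42437 and 49454 in OA and 52206, 49424 and 47792 in OA_T0, and its log2 fold changes were 0.049 (adjusted p = 0.802) in OA against MDI, 0.17 (adjusted p = 0.207) in OA_T0 against OA and 0.22 (adjusted p = 0.196) in OA_T0 against MDI by limma. In OA_T0 against MDI 0 of the 17 passed (8 higher and 1 lower with no adjustment), and P4ha1 had -0.10 (adjusted p = 0.379).

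Large procollagen molecules leave the endoplasmic reticulum in COPII carriers. Of 9 tested secretion genes 2 rose in OA against MDI, 0 fell (1 lower at an unadjusted p under 0.05), and the median was 0.14. The shares over all genes were 3.43% higher and 3.36% lower. Kdelr3, a receptor that returns chaperones to the endoplasmic reticulum, rose by 0.57 on the log2 scale (limma adjusted p = 8.78e-04) in this and in all 19 alternative settings. The COPII coat gene Sec24d rose by 0.30 (limma adjusted p = 0.0326), a call that ended without MDI replicates 1 or 2 (adjusted p = 0.143 and 0.101), OA replicates 1 or 3 (adjusted p = 0.0895 and 0.109) or OA_T0 replicate 1 (adjusted p = 0.0547). In OA_T0 against OA 1 of 9 fell, Kdelr3 (log2 fold change -0.27, SE 0.086, limma adjusted p = 0.0474), which did not pass without MDI replicate 2 (adjusted p = 0.0534), OA replicates 1 or 3 (adjusted p = 0.124 and 0.138) or OA_T0 replicates 1 or 3 (adjusted p = 0.175 and 0.115). None rose (2 at an unadjusted p under 0.05), and the median was -0.031. Over all genes 6.84% fell and 8.27% rose in this comparison. In OA_T0 against MDI 0 of 9 passed by limma, with 3 higher and 0 lower before adjustment.

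Outside the cell, propeptides are trimmed and chains crosslinked. Of 11 tested genes of this list 2 rose in OA against MDI, both lysyl oxidases, and 0 fell (0 also at an unadjusted p under 0.05), with a median of 0.13. Over all genes 3.43% rose and 3.36% fell. Lox, the main crosslinking enzyme of fibrillar collagen and elastin, was 38092, 40912 and 47969 in MDI, 55523, 64556 and 59982 in OA and 42778, 46181 and 36713 in OA_T0. All OA libraries were above the other 6. It rose in OA against MDI (log2 fold change 0.51, SE 0.10, limma adjusted p = 0.00695) and fell in OA_T0 against OA (log2 fold change -0.52, SE 0.10, limma adjusted p = 0.00286), and in OA_T0 against MDI it had -0.015 (adjusted p = 0.957). The rise was lost only with no filter on low values (adjusted p = 0.059), and the fall in none of the 19 alternatives. Loxl1, a relative of Lox, was 5701, 5827 and 6789 in MDI, 7502, 7535 and 8797 in OA and 6241, 6699 and 5534 in OA_T0. Its rise (log2 fold change 0.38, SE 0.085, limma adjusted p = 0.0146) missed the threshold without MDI replicates 1 or 2 (adjusted p = 0.0707 and 0.0893) or OA replicate 3 (adjusted p = 0.0613).

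With T0901317 added, the list's median was -0.28, against -0.0023 over all genes, and 0 rose (1 at an unadjusted p under 0.05). Of these 11, 5 fell (6.84% of all genes). Beside Lox they were Loxl1 (log2 fold change -0.37, SE 0.085, limma adjusted p = 0.00929), the procollagen N-propeptidase Adamts2 (log2 fold change -0.28, SE 0.053, limma adjusted p = 0.00260), Pcolce, the enhancer of C-propeptide removal (log2 fold change -0.38, SE 0.085, limma adjusted p = 0.00716), and Adamts14, a relative of Adamts2 named here after its value was seen (log2 fold change -0.43, SE 0.10, limma adjusted p = 0.0122). Leaving out any 1 library ended none of the calls of Lox, Loxl1, Adamts2 and Pcolce, and Adamts14 missed the threshold without OA replicate 1 (adjusted p = 0.0573). Pcolce was not called without both libraries with little ribosomal RNA (0.0558), Adamts14 not there either (0.145), and Loxl1 not with no filter (0.0548). In OA_T0 against MDI 0 of 11 passed, with 0 higher and 3 lower at an unadjusted p under 0.05.

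**Figure D5:**
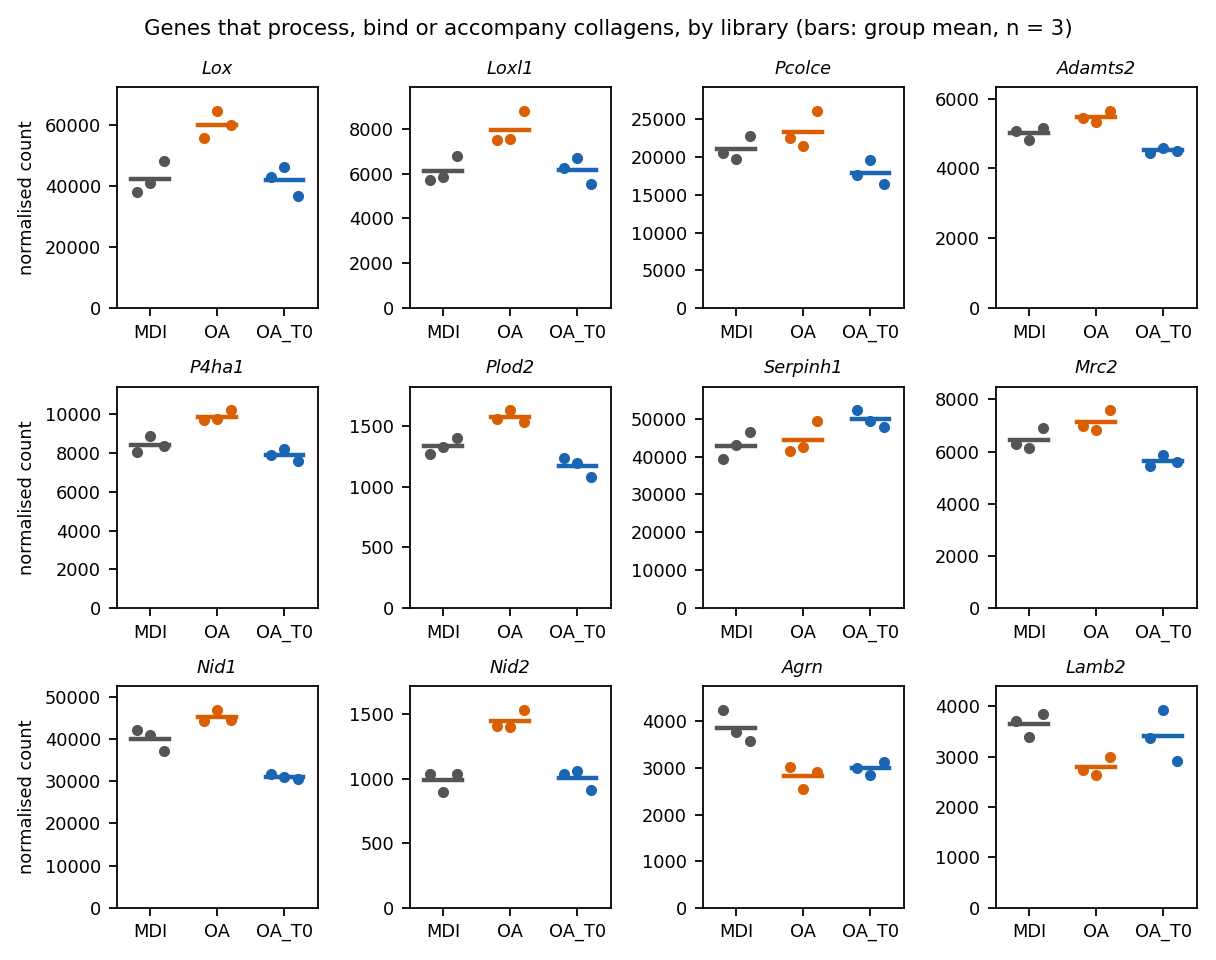
Normalised count of 12 genes that process, bind or accompany collagens in each of the 9 libraries, with bars at the group means (n = 3) and axes starting at 0. Lox and P4ha1 are highest in the 3 OA libraries, and Nid1 is lowest in the 3 OA_T0 libraries.

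Of 7 tested collagen receptors 0 passed in OA against MDI (1 higher and 1 lower with no adjustment) and 0 in OA_T0 against MDI (0 higher and 1 lower). In OA_T0 against OA 1 rose, the integrin chain Itga1 (log2 fold change 0.41, SE 0.10, limma adjusted p = 0.0145), and 1 fell, the endocytic collagen receptor Mrc2. Over all genes 8.27% rose and 6.84% fell in this comparison. The Itga1 call was lost with no filter on low values (adjusted p = 0.0512). Mrc2 was 6973, 6836 and 7580.5 in OA and 5429, 5860.4 and 5605 in OA_T0 (log2 fold change -0.34, SE 0.062, limma adjusted p = 0.00195). Of 9 tested fibril-associated proteins 0 passed in OA against MDI (2 higher and 3 lower with no adjustment) and 0 in OA_T0 against MDI (1 and 3). In OA_T0 against OA 1 fell, the small leucine-rich proteoglycan Ogn. Ogn was 1082, 1314 and 1156 in OA and 616, 761 and 479 in OA_T0, with no overlap (log2 fold change -0.96, SE 0.17, limma adjusted p = 0.00135).

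Laminins, nidogens, agrin and peroxidasin meet type IV collagen in the basement membrane. Of 12 tested genes of this list 2 rose and 2 fell in OA against MDI, against 3.43% and 3.36% of all genes, with a median of 0.0098. Nid2, a nidogen that links laminin to type IV collagen, was 1033, 898 and 1035 in MDI and 1410.0, 1402 and 1531 in OA (log2 fold change 0.55, SE 0.078, limma adjusted p = 5.38e-04). Pxdn, which crosslinks type IV collagen, rose by 0.23 (limma adjusted p = 0.0372), a call that ended without MDI replicates 1, 2 or 3 (adjusted p = 0.139, 0.0942 and 0.0521), OA replicates 1 or 3 (adjusted p = 0.0972 and 0.118) or OA_T0 replicate 1 (adjusted p = 0.0626). The heparan sulfate proteoglycan Agrn fell, from 4242, 3769.8 and 3585 in MDI to 3017, 2547 and 2911 in OA (log2 fold change -0.45, SE 0.075, limma adjusted p = 0.00201). The laminin chain Lamb2 fell by 0.39 (limma adjusted p = 0.0166), a call that ended without MDI replicate 1 (adjusted p = 0.0632) or OA replicates 1 or 2 (adjusted p = 0.0606 and 0.0612). Nid2 and Agrn passed in all 19 alternative settings.

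Against OA, OA_T0 had 1 of the 12 that rose and 4 that fell (8.27% and 6.84% of all genes), with a median of -0.12. Nid1, the other nidogen, was 42179, 40849 and 37093 in MDI, 44322, 46854 and 44564 in OA and 31812, 30889 and 30613 in OA_T0, and all OA_T0 libraries were below the other 6 (log2 fold change -0.54, SE 0.069, limma adjusted p = 9.45e-05). Nid2 fell to 1038, 1058 and 916 (log2 fold change -0.53, SE 0.078, limma adjusted p = 3.43e-04). Both passed in all 19 alternatives. The laminin chain Lama5 fell (log2 fold change -0.56, SE 0.14, limma adjusted p = 0.0168), a call that ended without OA replicate 1 (adjusted p = 0.0756) or OA_T0 replicates 1 or 3 (adjusted p = 0.0859 and 0.0612). The fall of Pxdn (log2 fold change -0.21, SE 0.062, limma adjusted p = 0.0356) ended without MDI replicate 2 (adjusted p = 0.0524), OA replicates 1 or 3 (adjusted p = 0.0948 and 0.0912) or OA_T0 replicates 1 or 3 (adjusted p = 0.121 and 0.136). Lamb2, named here after its value was seen, was the gene that rose (log2 fold change 0.28, SE 0.089, limma adjusted p = 0.0473), and it did not pass without MDI replicates 1 or 2 (adjusted p = 0.0589 and 0.0591), OA replicates 1 or 2 (adjusted p = 0.137 and 0.154) or OA_T0 replicates 1 or 2 (adjusted p = 0.132 and 0.160). Nor did Lamb2 pass with only the 2 groups fitted (limma adjusted p = 0.0640), with the replicate number as a block (0.0731) or with no filter on low values (0.156). In OA_T0 against MDI the list had a median of -0.12, and 0 rose (0 also at an unadjusted p under 0.05). Of the 12, 2 fell (1.36% of all genes). They were Nid1 (log2 fold change -0.36, SE 0.069, limma adjusted p = 0.0111), not called without MDI replicate 2 (adjusted p = 0.0651) or OA_T0 replicate 1 (adjusted p = 0.0652), and Agrn (log2 fold change -0.36, SE 0.075, limma adjusted p = 0.0173), not called without MDI replicates 1 or 2 (adjusted p = 0.0997 and 0.0672) or OA_T0 replicates 1 or 2 (adjusted p = 0.103 and 0.0588).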

How the data were processed

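Poly(A) RNA of 9 libraries (3 groups of 3) was sequenced from stranded libraries, per the labels. The submitters' processing notes name CASAVA 1.8.2, TopHat, HTSeq, DESeq2 and the mm9 genome, with no roles. The deposited values are a signal per gene: apparently fragment counts that the authors divided by 1 factor per library, judged from the most common step among their lowest values. Whole reads could not be recovered, so no count model was used: of the low values checked in each library, only 62.3% to 68.8% were within 0.05 of a step. The rest lay off the steps, so the single factor, the depth and the 3-fragment levels are estimates. Depth was estimated as the total divided by the step of that library.

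Log2(value + 1) of the 15002 genes with a mean of at least 10 was fitted with limma 3.58.1 (R 4.3.3, intensity trend, 3 groups sharing 1 spread, two-sided), and p-values were adjusted over all genes by Benjamini-Hochberg within each comparison. A fold change on this scale understates changes of low genes. Named are all collagens called, all tested fibrillar, type IV, type VI and multiplexin chains, up to 4 called genes per partner list and comparison with the smallest adjusted p, and Serpinh1, Lox and P4ha1; the fifth called genes Adamts14 and Lamb2 were added after their values were seen. Members, classes and lists were chosen with earlier results of these data known, so no value adjusted over a list is given. The 19 alternatives changed the pseudocount, filter, scaling, samples fitted, variance estimate or replicate block, or left libraries out.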

Additional observations from a re-analysis of the deposited data

How the results depend on the processing

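Of the 13 collagen calls, 0 reversed under the 19 alternatives and 2 passed under every one, Col3a1 and Col12a1 in OA_T0 against OA. Pseudocounts of 0.5 and 5, a filter at a mean of 50, equal totals and a robust variance estimate ended none. Counts of collagens called are given as higher and lower. In OA against MDI (0 and 2 as reported) they were 0 and 0 with no filter, 0 and 1 with the replicate block, and 1 and 0 without both libraries with little ribosomal RNA; leaving out 1 library gave 0 to 1 and 0 to 2. In OA_T0 against OA (4 and 5) they were 1 and 2 with no filter, 3 and 5 with quantile normalisation, 3 and 3 with the replicate block, and 1 and 2 without both; leaving out 1 library gave 0 to 4 and 2 to 6. In OA_T0 against MDI (0 and 2) they were 0 and 0 with no filter, 0 and 1 with quantile normalisation, 1 and 2 with only the 2 groups compared, 0 and 1 with the replicate block, and 2 and 1 without both; leaving out 1 library gave 0 to 1 and 0 to 2. The spread was pooled over all groups in the main fit and also where libraries were left out. This assumes that each group varies like the others, also a group with fewer than 3 libraries.

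Same-numbered libraries did not deviate together (correlations from -0.26 to 0.26 over 9 pairs), so the numbers were not taken to pair them. With no filter on low values, 27045 genes were tested and the calls over all genes were 467 in place of 1018 in OA against MDI, 1470 in place of 2266 in OA_T0 against OA and 110 in place of 392 in OA_T0 against MDI. Of the partner calls, that setting kept 3 of 12, 10 of 17 and 0 of 2 in the same order. Leaving out both libraries with little ribosomal RNA ended P4ha1, Plod2, Sec24d and Pxdn in OA against MDI. In OA_T0 against OA it ended Adamts14, Kdelr3, Lama5, Pcolce, Plod1 and Pxdn, and the marker Dlk1. The replicate block ended P3h1, Plod2 and Pxdn in OA against MDI, and Kdelr3, Lamb2, Plod1, Pxdn and Dlk1 in OA_T0 against OA. Of the 16 collagens not tested, 8 were above 3 fragments in no library.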
